A study of Mus musculus with 6 samples.

Results

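The BCL2 family of apoptosis regulators was followed through 10 of its genes, Bcl2, Bcl2l1, Bcl2l2, Mcl1, Bak1, Bcl2l11, Bid, Bad, Bik and Bmf, in cultured mouse embryonic fibroblasts (MEFs). The genes were taken by name: every probe on the array that was not a control and whose gene name in the scanner files was 1 of the 10 was included, which gave 15 of 55681 probes and 10 of 24054 named genes. Bcl2l1, Bcl2l2, Mcl1, Bcl2l11 and Bad had 2 probes each, and the other 5 genes had 1 each. Total RNA of 6 cultures was read on 6 single-colour arrays, 1 for each combination of 3 genotypes and a mock or a vector. The genotypes were wild type, Per2m/m, and Clk/Clk (a Clock mutant by the series design), all of strain ICR by the labels. The vector carried H-Ras, a GTPase of growth signalling and an oncogene in its active form, and SV40T, a viral antigen that binds p53 and RB, and the cultures that received it are called transfected. How Clock or Per2 is altered is not in the labels, nor whether a transfected culture came from 1 clone or which promoter drove the vector, and for the transfected Per2m/m culture the source name does not mention SV40. By its title the series is about chemotherapy resistance and Per2, and the 10 genes act at a step that decides whether a damaged cell dies.

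Proteins of the BCL2 family control the mitochondrial route to cell death. BCL2, BCL-XL (encoded by Bcl2l1), BCL-W (Bcl2l2) and MCL1 protect the outer mitochondrial membrane, while BAK1 and BAX are effectors that open it and let cytochrome c out, which starts the caspases. BID, BIM (Bcl2l11), BAD, BIK and BMF carry only the BH3 helix of the family, with which they occupy the groove of the protective proteins or switch on the effectors. In fibroblasts the balance between these groups sets how readily oncogenes, drugs or loss of attachment kill the cell.

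Levels are given as log2 of the processed signal over the 75th percentile of the array, so a difference of 1 is a 2-fold difference. A level describes 1 probe across arrays, and levels of different probes were not compared, though those of marker genes were added up. Each group was 1 array, so the differences between groups have no replicate error. The only error measured was that of repeated spots, whose median SD of 0.05 to 0.06 on each array gave a spread of 0.08 for a log2 difference of 2 arrays. Between 49.3% and 57.3% of spots were well above background on an array, with 0 saturated spots. The array of transfected Per2m/m cells stood apart: across 17687 genes it correlated with the other 5 arrays at 0.856 to 0.893, whereas the median correlation of each other array was 0.931 to 0.946. It also did not carry Xist, Ddx3y and Eif2s3y well above background, which the mock Per2m/m array did (Xist was also not well above background on the Clk/Clk arrays), with bounds of at least 16.6-fold, 23.2-fold and 13.7-fold. Of 12 fibroblast markers, 12 were well above background on both Clk/Clk arrays and on both other mock arrays, and 10 on the transfected wild type and Per2m/m arrays, where Fap and Lum were not. After transfection of Per2m/m cells 7 of the 12 were at least 2-fold lower and 0 higher. Lum was also lower, by a bound of only 1.40-fold, and with it the count was 8 by the rule used for all genes. Of all genes 20.5% were lower and 18.7% higher by that rule. Col1a2 and Fn1 were higher in transfected Per2m/m cells, by log2 differences of 0.50 and 0.51. For wild type cells 6 of the 12 were at least 2-fold lower, beside 12.1% of all genes. Pdgfra was higher by 2.07, beside 7.42% of all genes higher. For Clk/Clk cells 1 was lower and 1 higher, beside 4.2% and 3.72% of all genes. Of 8 epithelial markers, 5 were well above background on each Per2m/m array, with summed linear levels of 4.78 in the mock and 0.77 in the transfected culture: Cdh1 and Krt8 were well above background on the transfected array alone, and Krt18 and Krt19 on the other 5 arrays and not on it. Most of the mock sum came from Krt19. The part of these differences in the values of the family was not tested. Every Per2m/m response below rests on that array. The labels do not say that it came from the mock Per2m/m culture, so a difference between cultures and a difference by transfection cannot be told apart there.

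Of the 10 genes, 8 were well above background on all 6 arrays with each of their probes, Bcl2l11 with 1 of its 2, and Bik on 0. The sequences of the probes show what was read. Those below are the array's oligonucleotides from the scanner files, given from 5′ to 3′, for the genes on which the results turn or whose transcript forms matter. In the Bcl2 probe the capitals mark coding sequence that begins inside the BH1 region and runs past its end. In the Bcl2l11 probe they mark bases that code for the conserved end of the BH3 helix. The Bid and Bmf lines give the first 30 bases of a 60-base probe.
Bcl2 (A_51_P380013): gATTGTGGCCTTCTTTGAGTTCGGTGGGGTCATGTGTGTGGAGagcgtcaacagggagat
Bcl2l1 (A_52_P510877): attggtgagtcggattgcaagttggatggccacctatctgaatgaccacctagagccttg
Bcl2l11 (A_51_P484880): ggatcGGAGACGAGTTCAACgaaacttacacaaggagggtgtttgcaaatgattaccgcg
Bik (A_51_P117794): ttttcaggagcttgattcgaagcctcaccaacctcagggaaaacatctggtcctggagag
Bid (A_52_P574653): ctctttccctgggtaacatcacagaagatt
Bmf (A_55_P2029106): catgtgtaaatatcctctcatccatcaagt

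The positions are those of the files, on mouse build mm9. The Bcl2 probe lies on chromosome 1, 108608970 to 108609029, minus strand, at position 1838 of its RefSeq transcript. The Bcl2l1 probe printed above lies on chromosome 2, 152655185 to 152655244, minus strand, at position 674 of its transcript, and the second and brighter probe, A_55_P1974877, at 152606404 to 152606463, position 2311. The Bcl2l11 probe printed above covers chromosome 2, 127972893 to 127983988, plus strand. It is 60 bases long and spans 11096 bases of genome, so it reads a splice junction. A second Bcl2l11 probe, A_52_P348214, spans 127954736 to 127955417 and is assigned to an Ensembl transcript of the gene. The Bid probe lies on chromosome 6, 120843464 to 120843523, minus strand, position 1504, the Bmf probe on chromosome 2, 118354496 to 118354555, minus strand, position 4570, and the Bik probe on chromosome 15, 83374048 to 83374107, plus strand, position 360. The Mcl1 probes lie on chromosome 3, 95466855 to 95466914 and 95465543 to 95465602, and the Bak1 probe on chromosome 17, 27156807 to 27156866. The Bcl2l2 probes lie on chromosome 14, 55506840 to 55506899 and 55507008 to 55507067, and the Bad probes on chromosome 19, 7026323 to 7026382 and 7016918 to 7017403. No annotation of this build was used here, so exons and untranslated parts are not named.

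**Figure D1:**
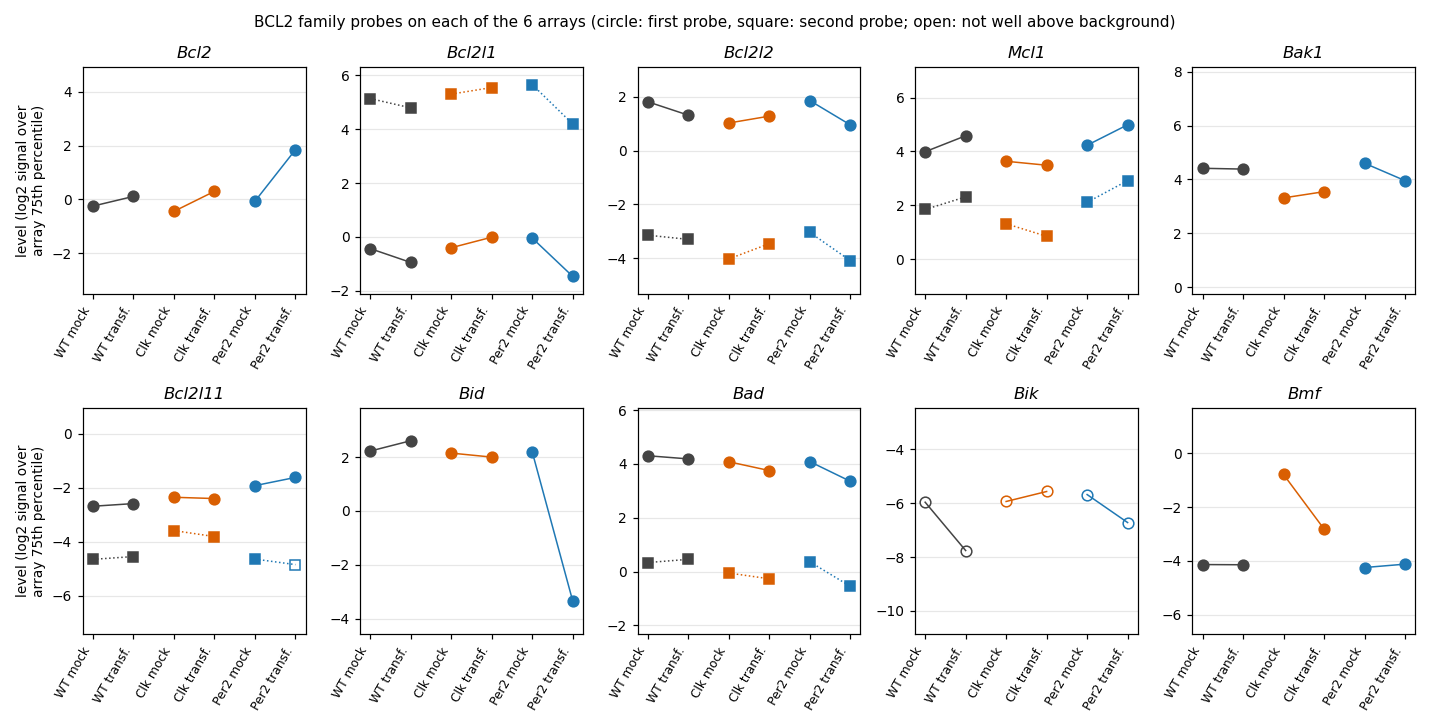
Level (log2 signal over the array's 75th percentile) of each probe of the 10 genes on the 6 arrays, 1 array per group. Circles are the first and squares the second probe in order of probe name, lines join the mock and transfected array of a genotype, open symbols were not well above background, and every panel spans the same number of log2 units. Bid is low on the transfected Per2m/m array alone, Bmf is high on both Clk/Clk arrays, and Bcl2 is highest on the transfected Per2m/m array.

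Bcl2, the founding protective member, was brighter after transfection in each genotype and most in Per2m/m cells. It read −0.25 for mock and 0.11 for transfected wild type, −0.44 and 0.30 for Clk/Clk, while Per2m/m cells read −0.07 and 1.84. The 3 transfected arrays all lay above the 3 mock arrays. How many of all genes order the arrays in such a way was not counted, here or for the orders of arrays given below. The log2 differences were 0.36 for wild type, 0.74 for Clk/Clk and 1.91 for Per2m/m, where the ratio was 3.77-fold. Over the genotypes the transfection coefficient of the additive limma model was 1.01 ± 0.42 (standard error; adjusted p = 0.694, unadjusted p = 0.0756), and it did not pass. Without the Per2m/m pair of arrays it was 0.55. Among transfected cells Per2m/m exceeded wild type by 1.73, or 3.32-fold, and among mock cells by 0.18. In RNA of whole cultures, fewer cells of a type and less RNA per cell cannot be told apart.

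Bcl2l1, which encodes the protective BCL-XL, was dimmest in transfected Per2m/m cells. The brighter probe read 5.14 for mock and 4.79 for transfected wild type, 5.30 and 5.55 for Clk/Clk, and 5.66 and 4.19 for Per2m/m cells. The other probe read −0.43 and −0.95, −0.40 and −0.01, and −0.04 and −1.47 in the same order. Both probes were lower after transfection in wild type and Per2m/m and higher in Clk/Clk cells. The Per2m/m difference was −1.47 with the brighter probe, a 2.76-fold ratio, and −1.42 with the other. On the mock arrays Bcl2l1 was highest in Per2m/m cells, so the difference had a high start as well as a low end, and between transfected Per2m/m and wild type cells it was −0.60. Transfected Clk/Clk cells exceeded transfected wild type cells by 0.76 with the brighter and 0.94 with the other probe. Over the alternatives that difference ranged from 0.11 to 1.11 for the gene. The transfection coefficient was −0.52 ± 0.44 (limma, adjusted p = 0.701).

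Bcl2l2, which encodes BCL-W, had a narrow range of levels, 0.90 over the 6 arrays and 0.84 without the transfected Per2m/m array (Bcl2 had 2.29 and 0.74). Its brighter probe read 1.81 and 1.31 for wild type, 1.02 and 1.28 for Clk/Clk, and 1.86 and 0.95 for Per2m/m cells, mock first. The direction was the same as for Bcl2l1, with log2 differences of −0.50, 0.26 and −0.90. The dimmer probe gave −0.16, 0.57 and −1.05, so in Per2m/m cells the probes lay on either side of 2-fold. Between mock Clk/Clk and wild type cells the difference was −0.79 with the brighter and −0.88 with the dimmer probe.

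Mcl1, a protective member whose protein turns over fast, followed another order. The brighter probe read 3.99 and 4.58 for wild type, 3.64 and 3.49 for Clk/Clk, and 4.23 and 4.99 for Per2m/m cells. Transfected cells were thus above mock cells in wild type, by 0.59, and in Per2m/m, by 0.76, while the Clk/Clk difference was −0.15, and −0.47 with the other probe. Both Clk/Clk arrays lay below the 4 other arrays with either probe. Between transfected Clk/Clk and wild type cells Mcl1 differed by −1.09 with the brighter probe, a 2.13-fold ratio, and by −1.46 with the other. With quantile normalization the first of these was −0.76, under 2-fold.

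Bak1, the effector that sits in the outer mitochondrial membrane, was lower in Clk/Clk cells than in the others. It read 4.42 and 4.38 for wild type, 3.32 and 3.55 for Clk/Clk, and 4.60 and 3.96 for Per2m/m cells. The Clk/Clk arrays were both below the other 4. Against wild type, the Clk/Clk difference was −1.10 among mock cells, a 2.14-fold ratio, and −0.84 among transfected cells, and the Clk/Clk coefficient was −0.97 ± 0.38 (limma, adjusted p = 0.536). With quantile normalization the mock difference was −0.97, just under 2-fold. Over the alternatives the transfected difference ranged from −1.48 to −0.50. The transfection response was −0.03 for wild type, where its sign turned with the scaling, 0.23 for Clk/Clk and −0.65 for Per2m/m cells. Bax, the other main effector, read 5.19 and 4.59 for wild type, 4.97 and 4.89 for Clk/Clk, and 5.08 and 5.68 for Per2m/m cells, so in Per2m/m cells its response of 0.61 ran the other way from that of Bak1.

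**Figure D2:**
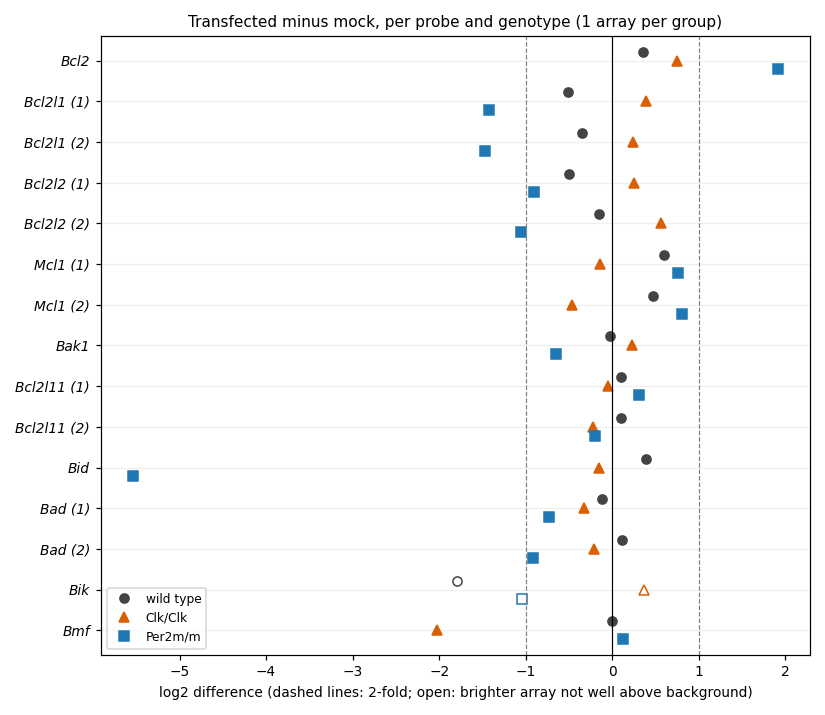
Log2 difference between the transfected and the mock array of each genotype for the 15 probes (x axis), 1 array per group; (1) and (2) are the probes of a gene in order of probe name, dashed lines mark 2-fold, and open symbols mark pairs whose brighter array was not well above background. Bid at −5.54 in Per2m/m and Bmf at −2.02 in Clk/Clk cells lie furthest from 0 among filled symbols.

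Bid, the BH3-only protein that caspase-8 cuts to carry death receptor signals to mitochondria, was far dimmer on the transfected Per2m/m array than on the other 5. Bid read 2.22 for mock and 2.61 for transfected wild type, 2.15 and 2.00 for Clk/Clk, and 2.18 for mock Per2m/m cells, against −3.36 for transfected Per2m/m cells. The first 5 arrays lay within 0.61 of each other, and the last was well above background but lower than all of them. The log2 difference was −5.54 for Per2m/m cells, a 46.5-fold ratio, against 0.38 for wild type and −0.15 for Clk/Clk cells. Compared with transfected wild type cells the ratio was 62.5-fold. In the range of its levels over the 6 arrays Bid was exceeded by 5.48% of the 17687 genes, and its Per2m/m response was 526th from the lowest. The additive model gave a Per2m/m coefficient of −3.00 ± 1.70 (limma, adjusted p = 0.934) and a transfection coefficient of −1.77 ± 1.39 (adjusted p = 0.695), and without the Per2m/m pair of arrays the latter was 0.12. Bid was read by 1 probe, so no second probe bears on the value.

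The genes beside Bid in chromosome order, chosen after its values were seen, were mostly not lower. Bcl2l13, its neighbour on one side and a distant relative in the BCL2 family, had a Per2m/m response of 1.53, and Mical3 on the other side of 0.41. Of the 10 nearest genes that were kept, 5 on each side, 2 were at least 2-fold lower, Tuba8 and Slc6a12, and 1 was at least 2-fold higher, with a median of 0.37. Over all genes 20.5% were lower and 18.7% higher, so these counts do not set the neighbours apart. After transfection of wild type cells Tuba8 was also lower, by −2.36, and Slc6a12 by at least 28.6-fold. The genes whose levels followed those of Bid most closely over the 6 arrays were Arl6ip1, Nav1 and Hic1, with root mean square differences of 0.23, 0.26 and 0.26 between centred levels among 12870 genes well above background on all arrays. Each was low on the transfected Per2m/m array alone, with Per2m/m responses of −5.43, −5.37 and −5.39.

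Bmf, a BH3-only protein that is tied to the cytoskeleton and released when cells lose attachment, was brightest in the Clk/Clk cultures. It read −0.79 for mock and −2.81 for transfected Clk/Clk cells, against −4.13 and −4.14 for wild type and −4.25 and −4.12 for Per2m/m cells. The 4 arrays of the other genotypes lay within 0.13 of each other and close to the lowest levels called well above background, which were −5.47 to −4.47. Mock Clk/Clk cells exceeded mock wild type cells by 3.34, a 10.2-fold ratio, and transfected Clk/Clk exceeded transfected wild type cells by 1.33, or 2.51-fold. The response to transfection was −2.02 for Clk/Clk cells, 4.07-fold lower, against −0.01 for wild type and 0.13 for Per2m/m cells. The Clk/Clk coefficient of 2.34 ± 0.68 had the lowest p of the family and did not pass (limma, adjusted p = 0.486, unadjusted p = 0.0285). Beside the dim levels of the other genotypes, with normexp background correction the mock difference was 2.02 and the Clk/Clk response −1.27. The transfected difference was under 2-fold with normexp (0.94), median scaling (0.68), quantile normalization (0.75) and the authors' deposited table (0.75). Without the Clk/Clk pair of arrays the transfection coefficient of Bmf, −0.64 ± 0.56, was 0.06. The genes closest to Bmf over the arrays were Lcn2, a secreted iron-binding protein, LOC100504423 and Rundc3a, with root mean square differences of 0.26, 0.28 and 0.31, and mock Clk/Clk cells exceeded mock wild type cells by 3.33, 3.33 and 3.00 in them.

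Bcl2l11, which encodes BIM, a BH3-only protein that binds all protective members, was highest in Per2m/m cells by its splice-junction probe. That probe read −2.69 and −2.59 for wild type, −2.35 and −2.40 for Clk/Clk, and −1.92 and −1.61 for Per2m/m cells. The Per2m/m arrays were thus both above the other 4, by 0.77 over wild type among mock and 0.97 among transfected cells. The Per2m/m coefficient was 0.87 ± 0.31 (limma, adjusted p = 0.934, unadjusted p = 0.0514), and the transfection coefficient 0.12 ± 0.25. The second probe read −4.66 and −4.55 for wild type, −3.59 and −3.81 for Clk/Clk, and −4.65 and −4.85 for Per2m/m cells, the last not well above background. With it the Clk/Clk arrays were highest, by 1.07 over wild type among mock and 0.74 among transfected cells. The 2 probes, assigned to different transcripts, thus did not give the same order of genotypes.

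Bad, a BH3-only protein that growth factor signalling keeps inactive by phosphorylation, stayed within 2-fold in each of the 7 comparisons with its brighter probe. It read 4.30 and 4.19 for wild type, 4.08 and 3.75 for Clk/Clk, and 4.09 and 3.36 for Per2m/m cells. The responses were −0.12, −0.33 and −0.73, and with the dimmer probe 0.12, −0.21 and −0.91. In wild type cells the direction therefore depended on the probe, and it also turned with the scaling. Bik, a BH3-only protein of the endoplasmic reticulum, was not well above background on any of the 6 arrays, with levels of −7.76 to −5.57, and no fold is given for it.

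**Figure D3:**
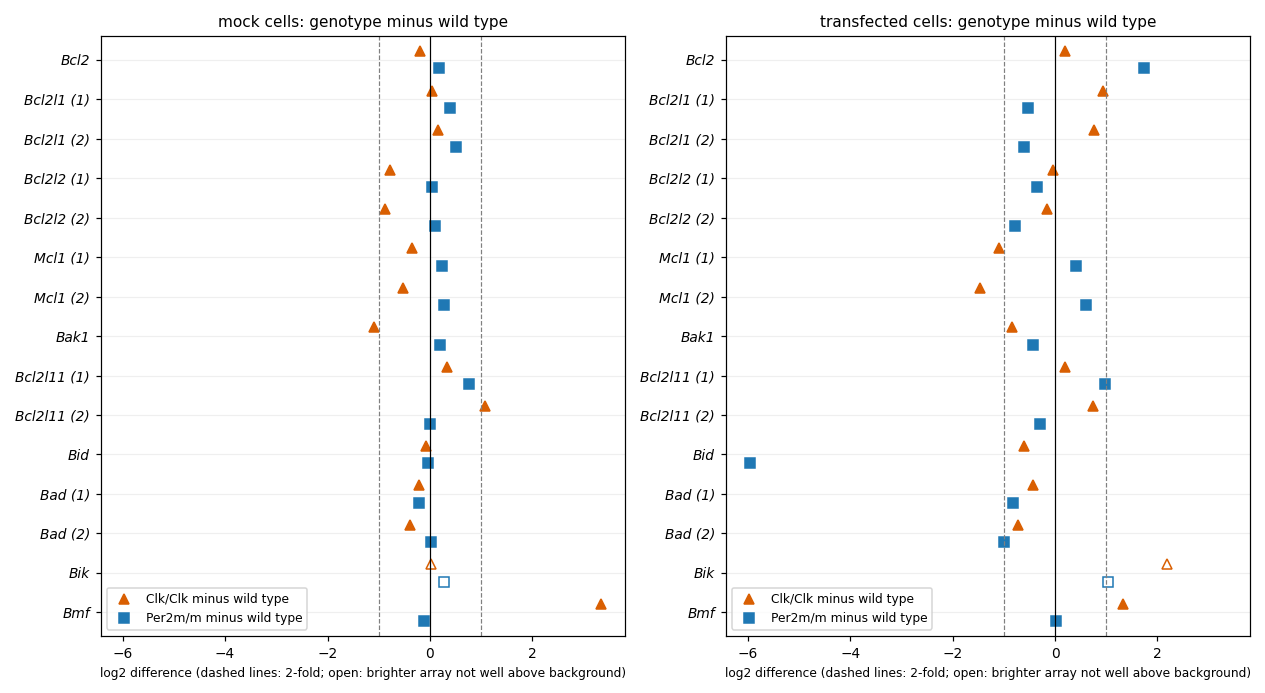
Log2 difference of Clk/Clk and of Per2m/m from wild type cells for the 15 probes, among mock cells (left) and transfected cells (right), 1 array per group; dashed lines mark 2-fold. The probes named here lie outside the 2-fold lines with their brighter array well above background. In mock Clk/Clk cells they are Bmf at 3.34, Bak1 at −1.10 and the second Bcl2l11 probe at 1.07. In transfected Clk/Clk cells they are Bmf at 1.33 and the Mcl1 probes at −1.09 and −1.46. In transfected Per2m/m cells they are Bid at −5.96 and Bcl2 at 1.73.

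The comparison of transfected with mock cells asks how the family stood after the oncogenes were added. Counting each gene by its brightest kept probe, 0 of 9 genes differed at least 2-fold in wild type cells, where 19.5% of all 17687 genes did (7.42% higher and 12.1% lower). In Clk/Clk cells it was 1 of 9, Bmf, which was lower, beside 7.92% of all genes (3.72% higher and 4.2% lower). In Per2m/m cells it was 3 of 9, Bcl2 higher and Bcl2l1 and Bid lower, beside 39.2% of all genes (18.7% higher and 20.5% lower). Bik does not enter these counts, because genes well above background on no array were left out. The median log2 difference of the 9 genes was −0.01 for wild type, −0.05 for Clk/Clk and −0.65 for Per2m/m cells, against −0.01, 0.02 and 0.12 over all genes. Of the protective genes, Bcl2 and Mcl1 were higher in transfected Per2m/m cells, and Bcl2l1 and Bcl2l2 lower.

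**Figure D4:**
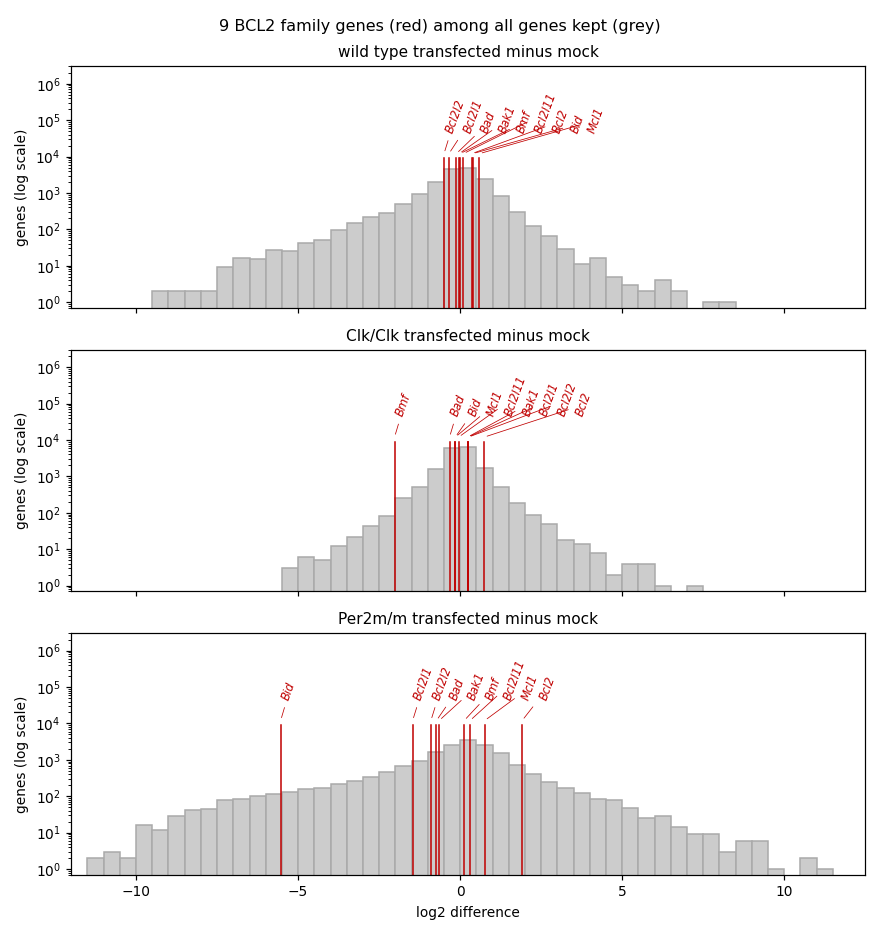
Number of genes (log scale, bins of 0.5) by log2 difference between transfected and mock cells in each genotype, for 17687 genes (grey), with the 9 measured BCL2 family genes as red lines. The 9 lie in the centre of the distribution in wild type cells, Bmf lies at −2.02 in Clk/Clk cells, and Bid lies at −5.54 in the lower tail in Per2m/m cells.

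Comparisons between genotypes share their wild type array, so the values are set side by side. Among mock cells 0 of 9 genes differed at least 2-fold between Per2m/m and wild type (9.02% of all genes did, 4.34% higher and 4.68% lower), with the widest difference 0.77 for Bcl2l11. Between mock Clk/Clk and wild type it was 2 of 9, Bmf higher and Bak1 lower, beside 21.3% of all genes (10.8% higher and 10.4% lower). Among transfected cells 2 of 9 differed between Per2m/m and wild type, Bcl2 higher and Bid lower (30.9% of all genes, 14.7% higher and 16.2% lower), and 2 of 9 between Clk/Clk and wild type, Bmf higher and Mcl1 lower (25.2%, 14.3% higher and 10.9% lower). The Clk/Clk differences of Bmf and Bak1 had the same direction in mock and transfected cells, and those of Bcl2 and Bid in Per2m/m cells were found on the transfected array and not on the mock array, where they were 0.18 and −0.04.

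In the additive limma model of genotype and transfection, 0 of 9 genes passed an adjusted p of 0.05 for transfection, Per2m/m or Clk/Clk, beside 0% of all genes for each. The lowest adjusted p of the family was 0.694, 0.934 and 0.486 in that order. At an unadjusted p under 0.05 there were 0, 0 and 1 of 9, beside 4.63%, 2.29% and 9.65% of all genes. The model left 2 residual degrees of freedom, so a p that missed the threshold does not show that a gene was alike in the groups compared. With 1 array per group, they hold the differences in response between genotypes, so a response seen in 1 genotype alone widens the standard error.

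Where a gene had 2 probes, they gave the same sign in 7 of 7 comparisons for Bcl2l1, Bcl2l2 and Mcl1, with gaps of at most 0.18, 0.43 and 0.37. For Bad it was 5 of 7 with a gap of at most 0.29. For Bcl2l11 it was 5 of 7 with a gap of up to 1.27, between the transfected Per2m/m and wild type arrays. The Bcl2l1 probes lie far apart in the transcript and gave nearly the same differences.

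The rest of the pathway was read through 5 lists of 54 genes, of which 49 were kept. In the additive model 0 of 49 passed in any of the 3 coefficients (limma, lowest adjusted p = 0.502). Of 11 other family members, 3 were at least 2-fold lower and 1 higher in wild type, 1 lower in Clk/Clk, and 3 lower and 3 higher in Per2m/m cells. Over all genes 12.1% were lower and 7.42% higher in wild type, 4.2% lower in Clk/Clk, and 20.5% lower and 18.7% higher in Per2m/m cells. Pmaip1, which encodes the BH3-only protein NOXA, a partner of MCL1 and a p53 target, read 2.67 and 0.96 for wild type, 2.23 and 2.50 for Clk/Clk and 3.15 for mock Per2m/m cells, and was not well above background in transfected Per2m/m cells, at least 214-fold lower. Bbc3, which encodes the p53-induced BH3-only protein PUMA, read 1.60 and 1.26, 2.80 and 1.90, and 1.84 and 3.47, so the 2 p53-induced genes had opposite directions in Per2m/m cells. Bcl2l15 had responses of −1.38 for wild type, 0.89 for Clk/Clk and −1.55 for Per2m/m cells. Bnip3, a mitochondrial relative induced by low oxygen, was chosen after its values were seen: its responses were 0.19, −1.37 and 3.41.

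Bcl2a1d, a protective member known from blood cells, was well above background only on the mock wild type and mock Per2m/m arrays, and was lower after transfection by at least 3.71-fold and 3.92-fold. Of the macrophage markers, 12 of 13 were well above background in mock wild type and 13 of 13 in mock Per2m/m cells, against 7 and 8 after transfection and 8 on each Clk/Clk array. Their summed levels, on the linear scale, were 47.7 and 57.3 for mock wild type and Per2m/m cells, 23.8 and 18.3 after transfection, and 61.9 and 57.2 for mock and transfected Clk/Clk cells. Most of each sum came from the 1 probe of Itgam, so the sums mainly follow that gene. The markers did not share an order: Tyrobp and Ctss were well above background only on the mock wild type and mock Per2m/m arrays, whereas Aif1, Cd14 and Itgam were higher in mock Clk/Clk than in mock wild type cells, at 0.08, 1.46 and 5.77 against −0.91, 0.14 and 5.22. Their part in the values of Bcl2a1d or of other genes was not tested.

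Of 11 genes of the apoptosome and caspases, none differed at least 2-fold (0 for wild type and 0 for Clk/Clk) outside Per2m/m cells. The share of all genes that differed by this size, in either direction, was 19.5% for wild type, 7.92% for Clk/Clk and 39.2% for Per2m/m. Endog, a mitochondrial nuclease, read 1.16 for mock Per2m/m cells and was not well above background after transfection, at least 48.8-fold lower. Apaf1, the scaffold of the apoptosome, had responses of 0.41, −0.23 and −0.75, and Casp9, the caspase it activates, of 0.17, −0.43 and −0.15. Among 5 inhibitors of apoptosis, 1 was higher in wild type, Birc5 (survivin, which also acts in mitosis) by 1.70, and 1 was lower in Per2m/m cells, Birc3 by at least 5.31-fold, again beside 7.42% and 20.5% of all genes.

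Bid links death receptors to mitochondria, and 4 of 9 genes of the death receptor arm were at least 2-fold lower in transfected Per2m/m cells. With Fasl, whose level there was below background, it was 5 of 9 by the rule used for all genes, of which 20.5% were lower, and the median was −1.03 against 0.12 over all genes. The 4 were Fas, the receptor itself, at −1.08, Tnfrsf10b, a receptor for TRAIL, at −2.73, Casp8, which cuts BID, at −1.03, and Cflar, which restrains Casp8, at −1.58. Fasl, the ligand of Fas, well above background only on the mock Per2m/m array, was lower by a bound of only 1.07-fold. In wild type cells 0 of 9 and in Clk/Clk cells 1 of 9 were at least 2-fold lower, Fas at −1.19, beside 12.1% and 4.2% of all genes. Fas was lower after transfection in all 3 genotypes, with −0.83 for wild type cells, and its transfection coefficient had an unadjusted p of 0.0167 (limma, adjusted p = 0.694). The list holds both activators of the caspase and an inhibitor.

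Among 13 regulators of the family, 2 were at least 2-fold higher in wild type, 0 differed in Clk/Clk, and 2 were lower in Per2m/m cells, beside 7.42% of all genes higher in wild type and 20.5% lower in Per2m/m cells. Those in wild type were Foxo3, a transcription factor that drives Bcl2l11, at 1.24, and Trp53, which encodes p53, at 1.11. Those in Per2m/m cells were Ywhab, a 14-3-3 protein of the kind that holds BAD, at −1.48, and Akt1, a kinase that phosphorylates BAD, at −1.09. Huwe1, Usp9x and Fbxw7, which set the turnover of MCL1 protein, had responses of −0.38 to 0.92 over the 3 genotypes. These genes act on proteins, which were not measured here.

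**Figure D5:**
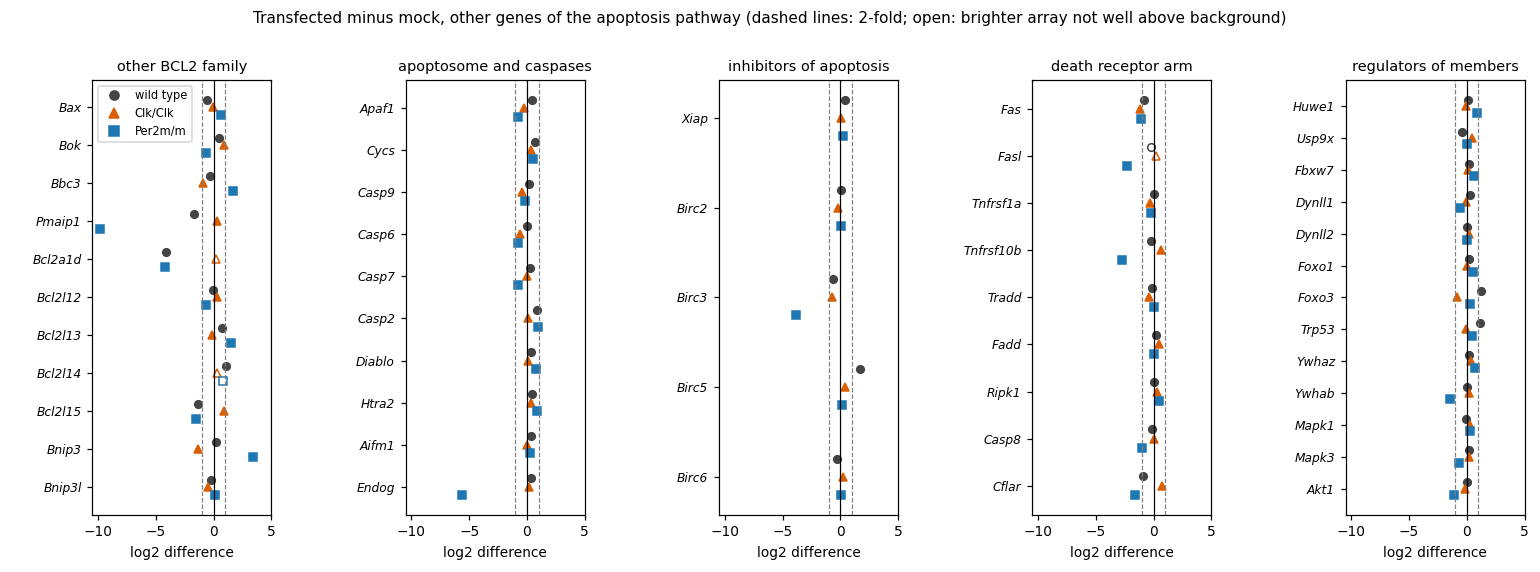
Log2 difference between transfected and mock cells for the reported genes of 5 other lists of the apoptosis pathway, by genotype, 1 array per group; dashed lines mark 2-fold and open symbols mark pairs whose brighter array was not well above background. Pmaip1 and Endog lie far below 0 in Per2m/m cells, and 5 genes of the death receptor arm lie below the 2-fold line there, Fasl with a bound of only 1.07-fold.

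CLOCK and its partner BMAL1 bind the E-box, CACGTG, and PER2 represses them, so the promoters of the family were searched for it on both strands, which read alike for this palindrome. RefSeq promoter windows of 300 bases, 250 before and 50 after a gene's start (GRCm38.p6), were found for 9 of the 10 genes, 15 windows in all. The sequence was in 0 of 15 windows, against 7.15% of 32851 windows of the same length, which says only that these letters are not in those windows. Over the arrays, the genes closest to Bcl2 were Gm33989, Sik2 and Bicral, with root mean square differences of 0.12, 0.15 and 0.16 between centred levels and Per2m/m responses of 2.16, 1.79 and 1.65.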

How the data were processed

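Total RNA from 6 MEF cultures was labelled with Cy3 and hybridised to 1 slide of Agilent arrays, scanned once. The deposited scanner files give a spot intensity on a linear scale, background-subtracted and detrended, from Feature Extraction 10.7.1.1 per the file headers; the submitters' processing notes name version 9.5.1.1. The authors' deposited table holds normalized intensity. Its 6 columns shared a median of 23.8, and each correlated with the matching array at 0.998 or more. For the Per2m/m response its median over all genes was 0.047, against 0.048 with quantile normalization and 0.40 with median scaling. Whole distributions were not compared. The deposited table served as an alternative. Slide and scan were shared by all arrays, so no block could be fitted, but both Per2m/m arrays lay in slide row 2 and the others in row 1, so row and that genotype cannot be told apart.

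Outlier spots were left out, spots of a probe averaged, and log2 of the processed signal taken minus the array's 75th percentile. Probes were named by RefSeq accession (27215), symbol (3585) or synonym (565) in a table of GRCm38.p6, or kept the file's name (1818). A gene was represented by its brightest probe well above background on at least 1 array, which left 17687 genes. A 2-fold difference was counted where the brighter of both arrays was well above background. A dim group's bound is the higher of its own level and the lowest level well above background. The additive model was fitted on all genes with limma 3.58.1 in R 4.3.3 (two-sided, Benjamini-Hochberg) and tested on simulated data; Python 3.11.15 was used otherwise. The labels do not say that cultures were separate animals, so p-values speak only of these 6 samples. With 1 array per group, the residual of the model is the difference in response to transfection between genotypes. Standard errors and p-values therefore do not measure a spread between replicates. Named genes were the 10 members, fixed related genes and, of the lists, those at least 2-fold the same way in 2 genotypes. Other list genes were named outside this rule, with their values known. Among them, Endog, Birc3, Birc5, Tnfrsf10b, Casp8, Cflar, Fasl, Foxo3, Trp53, Ywhab and Akt1 were counted as 2-fold in 1 genotype only. Members and lists were chosen with earlier results of these data known. Alternatives were other scalings, normexp, the authors' table, probe filters, probe averaging, a 1.5-fold size and fits without a genotype's pair of arrays. A gene of the apoptosome and caspase list is not reported here, though it counts among the list's members.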

Additional observations from a re-analysis of the deposited data

Results flagged for a closer look

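Genes whose response had opposite directions in 2 genotypes, each beyond 0.16 in log2 (the spread of repeated spots doubled), are given here with the difference of the responses. With 1 array per group these differences were not tested. Bid differed by −5.92 between Per2m/m (−5.54) and wild type cells (0.38). Bcl2l1 differed by −1.71 between Per2m/m and Clk/Clk cells and by 0.59 between Clk/Clk and wild type cells. Bcl2l2 differed by −1.16 and 0.75 in the same pairs of genotypes. Bak1 differed by −0.88 between Per2m/m (−0.65) and Clk/Clk cells (0.23).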

How the results depend on the processing

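No member passed in limma under any of the alternatives tried (0 of the tested members for each coefficient). The 2-fold counts became 1 (wild type), 2 (Clk/Clk) and 7 (Per2m/m) for the responses at a 1.5-fold size, and 1 for mock Per2m/m, 5 for transfected Per2m/m and 5 for transfected Clk/Clk against wild type. For mock Clk/Clk against wild type the count was 1 with quantile normalization and with the authors' table, and 3 with median scaling (Bcl2l2 at −1.12) or at 1.5-fold. For transfected Clk/Clk against wild type it was 4 with scaling to the median and 1 with quantile normalization, normexp or the authors' table. With quantile normalization neither Bmf nor Mcl1 reached 2-fold, so the gene counted there was another. Over the alternatives Bcl2l1 ranged from 0.11 to 1.11 in this comparison. The median response of the members with median scaling, quantile normalization and the authors' table became 0.31, 0.24 and 0.24 for wild type, −0.37, −0.83 and −0.83 for Per2m/m, and in Clk/Clk cells 0.092 without a filter (Bik included) and −0.14 with probes averaged. Coefficients that turned sign were transfection for Bak1 (0.049 with median scaling, 0.10 without the Per2m/m pair), Bid (0.12 without the Per2m/m pair) and Bmf (0.059 without the Clk/Clk pair), Per2m/m for Bmf (0.14 with normexp), and Clk/Clk for Bcl2 (0.014 with normexp), Bcl2l1 (−0.024 with median scaling) and Bcl2l11 (−0.23 with median scaling, −0.074 with quantile normalization and with the authors' table). The cause was not tested. Median scaling moved the median of all genes to −0.74 for transfected Clk/Clk against wild type, from −0.09. The additive model sets transfected against mock cells within each genotype, and the labels carry no replicate numbers for a further block. Signal over background limits Bmf, Bik and the second Bcl2l11 probe.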
